A study of Homo sapiens with 12 samples.

Results

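ARID1A regions that were called with the Abcam antibody and that overlapped no region called with the CST antibody are described here. Of 37501 Abcam regions on chromosomes 1 to 22 and X, 8892 shared not a single base pair with any of the 32932 CST regions, which was 23.7% of the list (95% exact binomial interval 23.3% to 24.1%). They were chosen by the positions of the called regions alone. The other 28609 Abcam regions overlapped a CST region and are called shared. In the other direction, 4109 CST regions (12.5%) overlapped no Abcam region.

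The cells were RT112, a human bladder transitional cell carcinoma line without mutations in ARID1A, grown without treatment. CUT&RUN, in which a nuclease tethered to an antibody releases the DNA around the bound protein, was done with 2 antibodies against ARID1A (Abcam and Cell Signaling Technologies, CST), with an antibody against H3K4me3 and with IgG, with 3 replicates each (12 samples). All samples were of this 1 line, and no sample lacked ARID1A. One merged list of region positions per antibody was used for Abcam, CST and H3K4me3, so that read depth, signal and the spread between replicates are unknown, and IgG regions were not analysed here.

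ARID1A is a large subunit of BAF, a form of the SWI/SNF complex that binds DNA and uses ATP to slide and evict nucleosomes at enhancers and promoters. H3K4me3 is a histone mark of active and poised promoters. AP-1, a dimer of JUN and FOS family proteins, binds the word TGANTCA at many enhancers of epithelial cells, and BAF complexes are known to be recruited to such enhancers. An antibody recognises its own part of a protein, so a protein can be seen at a place by an antibody and not by another, and a weak region can also pass the threshold of a list and miss that of another. These cannot be told apart from positions alone.

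H3K4me3 at promoters was set against the label of the cells. Of 14 markers of luminal urothelium it was present for 10 (such as GATA3, PPARG, FOXA1 and KRT8), and it was not called for UPK1A, UPK2, UPK3A and KRT20. It was present for 2 of 5 basal markers (TP63 and CD44), 1 of 6 fibroblast markers (LUM), and 0 of 5 immune, 0 of 4 endothelial and 0 of 3 hepatocyte markers.

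The central 200 bp of 3 Abcam-only regions and 2 shared regions show the kinds of sequence compared below, on the plus strand of hg38, with capitals marking the searched words. The GLCCI1 window is a GC-rich promoter inside H3K4me3. The NMNAT2 window is the centre of a region 3220 bp wide whose edge lies 274 bp from an internal start site. That region has no H3K4me3, and its central window holds an AP-1 word away from the start site.
GLCCI1, Abcam only, chr7:7969354-7969553: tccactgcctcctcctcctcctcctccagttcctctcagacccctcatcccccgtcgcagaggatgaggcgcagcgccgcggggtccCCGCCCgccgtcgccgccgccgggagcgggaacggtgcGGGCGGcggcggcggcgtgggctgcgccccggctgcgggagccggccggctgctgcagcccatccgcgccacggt
NMNAT2, Abcam only, chr1:183302891-183303090: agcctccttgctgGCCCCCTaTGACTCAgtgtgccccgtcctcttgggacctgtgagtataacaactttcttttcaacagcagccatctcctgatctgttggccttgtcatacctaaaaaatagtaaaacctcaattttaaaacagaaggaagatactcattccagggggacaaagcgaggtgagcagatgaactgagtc
MAP3K5 intron, Abcam only, chr6:136566854-136567053: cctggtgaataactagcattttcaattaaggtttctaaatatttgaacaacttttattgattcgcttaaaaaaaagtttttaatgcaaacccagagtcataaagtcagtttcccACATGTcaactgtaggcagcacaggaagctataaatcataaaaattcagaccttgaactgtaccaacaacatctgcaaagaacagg
LRRFIP1 promoter, shared, chr2:237693602-237693801: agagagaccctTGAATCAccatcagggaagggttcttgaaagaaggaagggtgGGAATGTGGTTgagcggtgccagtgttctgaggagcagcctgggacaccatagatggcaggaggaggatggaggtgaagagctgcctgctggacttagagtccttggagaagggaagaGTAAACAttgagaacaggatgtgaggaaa
Near MAP3K2, shared, chr2:127401620-127401819: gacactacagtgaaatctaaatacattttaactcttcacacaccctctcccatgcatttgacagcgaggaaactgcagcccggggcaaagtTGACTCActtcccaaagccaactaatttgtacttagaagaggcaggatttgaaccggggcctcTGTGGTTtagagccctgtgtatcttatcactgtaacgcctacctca
The capitals mark the GC box word (GGGCGG or its complement) in GLCCI1, a CTCF word and the AP-1 word in NMNAT2, the p53 family word in the MAP3K5 intron, and the AP-1 word near MAP3K2. A RUNX word follows near MAP3K2. In LRRFIP1 the capitals mark an AP-1 word, a TEAD word that runs into a RUNX word, and a FOXA word. The window near MAP3K2 was chosen after its values were seen, to show an AP-1 word in a distal shared region. The distal shared window that the width match gave held no AP-1 word and is not shown. A distal Abcam-only window with an AP-1 word is not shown either. The windows printed thus do not show how often the word occurs in either set.

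Width separated these regions from the shared ones. Their median width was 1124 bp (range 279 to 4289 bp), against 1636 bp (280 to 17813 bp) for the shared regions, and they covered 10.5 Mb, against 53.1 Mb. CST-only regions were as narrow, with a median of 1055 bp. When all Abcam regions were put in 20 classes by width, the share without CST was 57.1% in the narrowest class (279 to 750 bp) and 0.266% in the widest (3368 to 17813 bp), where 5 of 1877 regions were Abcam only. A wider region has more bases with which to overlap another list, so width and the rule are bound to each other. Comparisons given below as at the same widths therefore used shared or CST-only regions weighted to the widths of the Abcam-only regions. Shares by distance to CST, of H3K4me3 regions with CST, of genes and gene lists, and counts in genes and windows were not weighted.

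**Figure D1:**
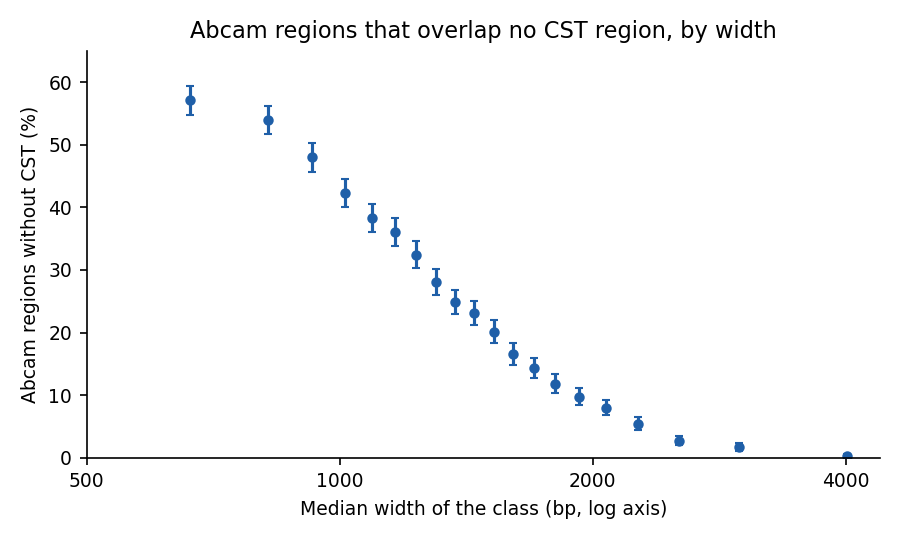
Share of Abcam regions that overlapped no CST region (vertical axis, percent) in 20 width classes, plotted at the median width of the class (horizontal axis, bp, log scale), with 95% exact binomial intervals as bars. The share was 57.1% in the narrowest class and 0.266% in the widest.

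The distance to the nearest CST region, which the rule sets to be above an overlap, had a median of 11991 bp (interquartile range 3.55 to 36.7 kb) and reached 2.65 Mb. Of the 8892 regions, 756 (8.50%) lay under 1 kb from a CST region and 765 (8.60%) lay over 100 kb away. The nearest CST region was itself CST only for 1080 regions (12.1%). The next Abcam region was a median of 10.1 kb away, against 8.53 kb for shared regions of the same widths.

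**Figure D2:**
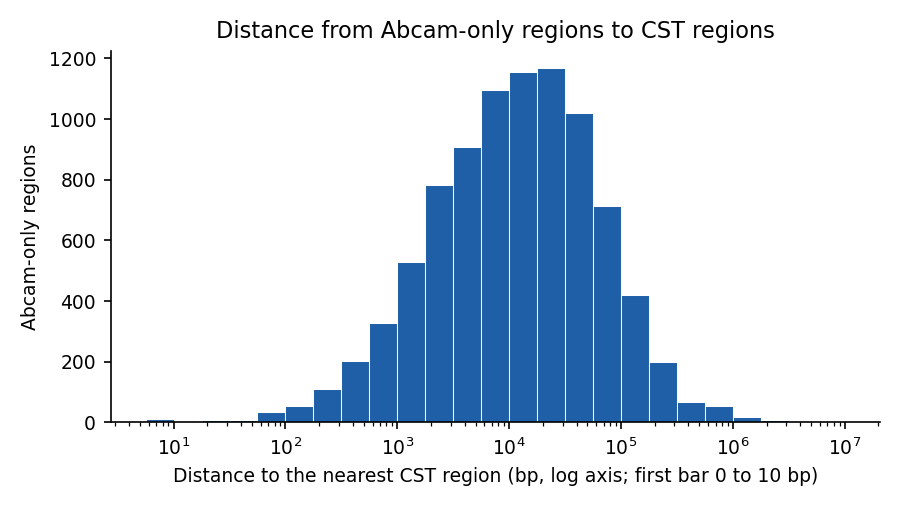
Number of Abcam-only regions (vertical axis) by distance to the nearest CST region (horizontal axis, bp, log scale, first bar 0 to 10 bp). The median was 11991 bp, and 756 regions lay under 1 kb from a CST region.

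Few regions lay at the edge of the rule. A gap of under 100 bp separated 61 Abcam-only regions from a CST region, and 4 of them touched it with no base between. Among these 4 was one 895 bp from a start site of the cadherin gene FAT3 on chromosome 11 (92845235 to 92847382). In others the nearest start site was that of DHX15, 74818 bp away, or of TNRC6C, 113994 bp away. Just inside the other side, 35 shared regions (0.122%) had an overlap of under 100 bp, while the median overlap was 1302 bp. The smallest was 4 bp, in a region 5460 bp from the nearest start site, that of GNG11. Next were overlaps of 7 bp, with the nearest start site that of RRP12 (9337 bp away) or METTL4 (145231 bp away).

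The regions farther from CST were more often at promoters. Regions counted as at a promoter when they covered a start site of any protein-coding transcript or their nearest edge lay within 1 kb of it. A wider region can therefore reach more start sites. The share at promoters was 15.4% (95% interval 11.9% to 19.6%) for the 363 regions under 500 bp from CST, 13.6% (12.3% to 15.1%) for the 2400 at 500 bp to 5 kb, 21.8% (20.6% to 23.01%) for the 4451 at 5 to 50 kb and 26.1% (24.0% to 28.3%) for the 1678 at 50 kb and more. The share in H3K4me3 was 14.6%, 11.04%, 16.6% and 21.5% in the same classes. The mean GC content of the central 200 bp was 45.7%, 47.5%, 49.4% and 49.9%. The share with an AP-1 word was 15.2%, 18.4%, 18.5% and 20.1%, with overlapping intervals in all 4 classes. The median width of the classes was between 1104.5 and 1140.5 bp.

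Most of these regions lay away from genes' starts. Of the 8892 regions, 1790 (20.1%) were at a promoter. By the midpoint of the others, 222 (2.50%) lay in an exon, 3061 (34.4%) in an intron and 3819 (42.9%) in intergenic space. In all, 5657 (63.6%) lay over 10 kb from any protein-coding start site. Over all Abcam regions, 24.1% were at a promoter and 59.9% lay over 10 kb away. Without regard to width the promoter share was 5.14 percentage points below that of the shared regions (25.3%). At the same widths it was 1.68 points above theirs (18.4%), with a 95% interval of 0.678 to 2.69 points (z test over n = 8892 and 28609 regions, Benjamini-Hochberg adjusted p = 0.00722 over 7 measures of location). The call did not hold with a promoter of 3 kb, with the most upstream start site of each gene alone, or with the start sites of all gene types (differences of 1.36, 1.24 and 1.01 points). The share over 10 kb away was 63.6%, against 64.3% at the same widths (difference -0.730 points, interval -1.99 to 0.532), and the shares in exons, in introns, in intergenic space and over 100 kb from a start site did not pass the test either. The z test treats regions as independent and covers counting error only.

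H3K4me3 overlapped 1418 Abcam-only regions (15.9%), against 20.8% of all Abcam regions and 22.4% of the shared regions. At the same widths the shared regions had 15.2%, a difference of 0.758 points with an interval of -0.155 to 1.67 (z test, n = 8892 Abcam-only regions, adjusted p = 0.363). The larger gap between the unweighted shares was therefore not seen between regions of equal width.

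The difference in location depended on width. In 4 width groups of nearly equal size, set after the values were seen, the narrowest Abcam regions (279 to 1128 bp, 4488 of them Abcam only) had 11.97% at promoters when Abcam only, against 13.46% when shared, and 8.65% against 10.2% in H3K4me3. The widest group (1995 bp and more, 337 of them Abcam only) had 46.9% at promoters when Abcam only, against 31.8% when shared, and 40.7% against 29.2% in H3K4me3. The difference thus ran from -1.50 points (interval -2.85 to -0.144) in the narrowest group to 15.1 points (9.58 to 20.5) in the widest at promoters. The change between the 2 groups was 16.6 points at promoters and 12.9 points in H3K4me3 (z tests of the change, n = 337 and 4488 Abcam-only regions, adjusted p = 2.16e-08 and 6.75e-06 over 5 measures). For the share over 10 kb from a start site it was -17.0 points (z test, n = 337 and 4488, adjusted p = 2.16e-08). The wide Abcam-only regions are few, and they were more promoter-rich than shared regions of their width, while the narrow ones, which are most of the set, were slightly less so.

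**Figure D3:**
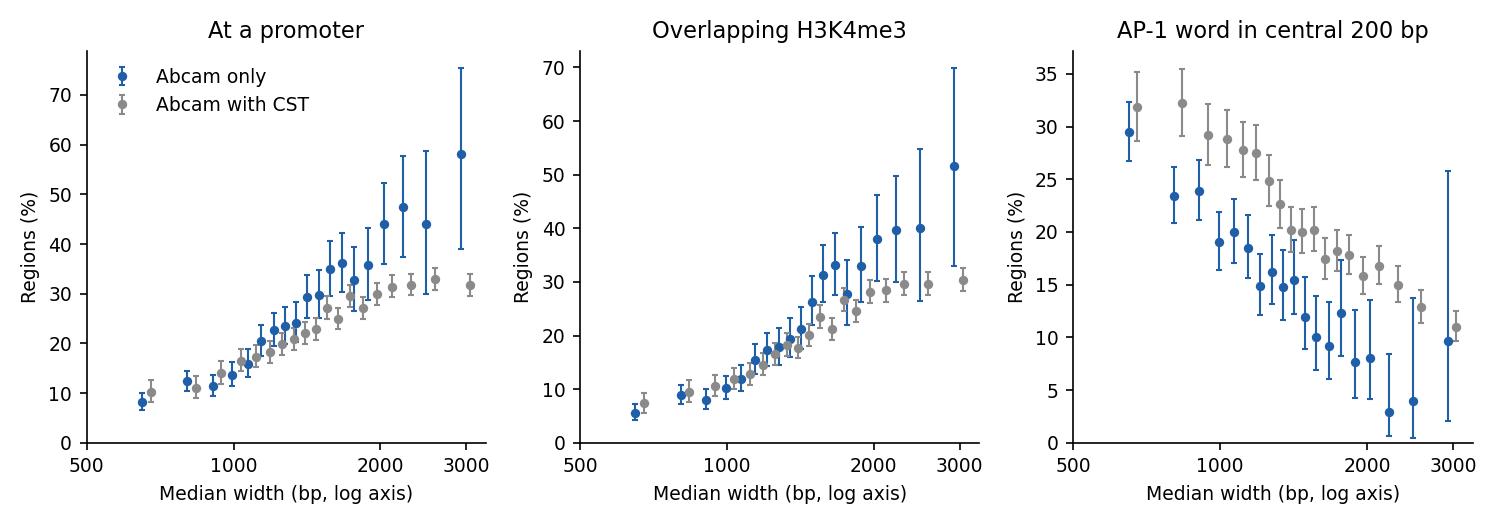
Share of Abcam regions (vertical axes, percent) at a promoter, overlapping H3K4me3 and with an AP-1 word in the central 200 bp, by the median width of the class (horizontal axes, bp, log scale), for Abcam-only regions (blue) and shared regions (grey), with 95% exact binomial intervals and small sideways shifts so that both can be seen. The 19 classes with at least 20 Abcam-only regions are drawn, and the blue points for promoters and H3K4me3 pass above the grey ones as width grows, while those for AP-1 lie below throughout.

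AP-1 words were fewer in these regions. In the central 200 bp, 1658 Abcam-only regions (18.6%) held TGANTCA on either strand, against 25.8% of shared regions of the same widths and 19.3% of all Abcam regions. The difference was -7.11 points (interval -8.22 to -6.00, z test, n = 8892 Abcam-only regions, adjusted p = 4.06e-35 over 20 words). It was lower in 19 of the 19 width classes with at least 20 Abcam-only regions, with intervals that did not overlap in 12 of them, and lower on 22 of 23 chromosomes. In the narrowest and the widest of the 4 width groups the difference was -6.59 and -9.12 points, and the change between them did not pass the test (-2.53 points, interval -5.79 to 0.734, z test, n = 337 and 4488, adjusted p = 0.129). Without regard to width the difference was only -0.890 points, since AP-1 words become rarer as regions become wider.

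The word was concentrated at the midpoint in both sets. In the central bin of 100 bp it was present in 10.1% of Abcam-only regions, against 14.4% of shared regions of the same widths and 7.26% of CST-only regions. In the bins 900 bp and more from the midpoint it was present in 2.74%, 2.78% and 2.71%, so the sets differed at the middle and not in the flanks.

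**Figure D4:**
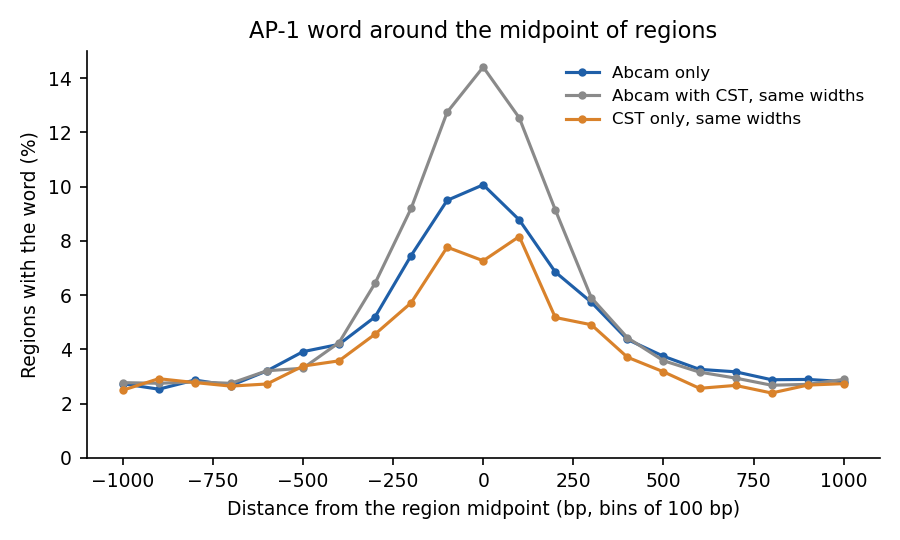
Share of regions with the AP-1 word (vertical axis, percent) in bins of 100 bp by distance from the midpoint (horizontal axis, bp), for Abcam-only regions (blue), shared Abcam regions of the same widths (grey) and CST-only regions of the same widths (orange). At the midpoint the shares were 10.1%, 14.4% and 7.26%, and from about 400 bp outwards the blue and grey lines lie close to each other.

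The lower share of AP-1 words was found away from promoters and, with a smaller difference, at promoters. Among regions off promoters and without H3K4me3 (6963 Abcam only and 20731 shared, of which 6962 and 19558 were in width classes that could be compared), 22.4% held the word, against 30.6% at the same widths, a difference of -8.19 points (z test, n = 6962 Abcam-only regions, adjusted p = 1.89e-31). At promoters it was 4.97%, against 6.99% (adjusted p = 0.0313 by the z test, n = 1790), and at promoters with H3K4me3 it was 2.42%, against 2.95%, with an interval of the difference from -1.61 to 0.547 points. Of the 10 widest Abcam-only regions over 10 kb from a start site and without H3K4me3, 1 held the word.

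Of 20 words searched, 2 (10.0%) were called lower and 0 (0.00%) higher, and 3 had an unadjusted p under 0.05, all lower. The second was the word GGAATGT, bound by TEAD factors of the Hippo pathway, in 3.82% of Abcam-only regions, against 4.61% at the same widths (-0.783 points, z test, n = 8892, adjusted p = 0.0481). That call was lost under 7 of 14 alternatives, among them 10 width classes, autosomes alone and regions off promoters without H3K4me3. The third was GCCAAT, the word of the promoter factor NFY, at 6.40% against 7.19% (z test, n = 8892, adjusted p = 0.134). Words at promoters were set apart after the data were seen. At promoters with H3K4me3 GCCAAT was called: 6.49% of 1279 Abcam-only regions held it, against 11.1% of shared ones (z test, n = 1279, adjusted p = 4.74e-06), and the GC box word GGGCGG, bound by SP and KLF factors, was in 49.1%, against 54.0% (z test, adjusted p = 0.0365), a call not made over all promoters (z test, adjusted p = 0.0567). The reversed AP-1 word ACTNAGT, a control of the same composition, was in 4.97%, against 5.47% (interval -1.10 to 0.101 points), and did not pass the test. In regions at least as wide as the Abcam median this control was itself called lower (-1.67 points, z test, n = 1695, adjusted p = 0.00446). The AP-1 difference there was -8.01 points.

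GC content was slightly higher. The central 200 bp averaged 48.8% GC in Abcam-only regions, against 48.0% in shared regions of the same widths, a difference of 0.863 points (interval 0.565 to 1.16, z test, n = 8892, adjusted p = 2.97e-08 over 2 measures). It was higher on 21 of 23 chromosomes and among regions off promoters and without H3K4me3 (45.2% against 44.6%). At promoters the difference did not pass the test (0.554 points, interval -0.106 to 1.21). The ratio of observed to expected CpG was 0.309, against 0.308, and did not pass the test. As with location, the GC difference was larger in the widest group (3.39 points) than in the narrowest (0.147 points, z test of the change, n = 337 and 4488, adjusted p = 2.45e-04).

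**Figure D5:**
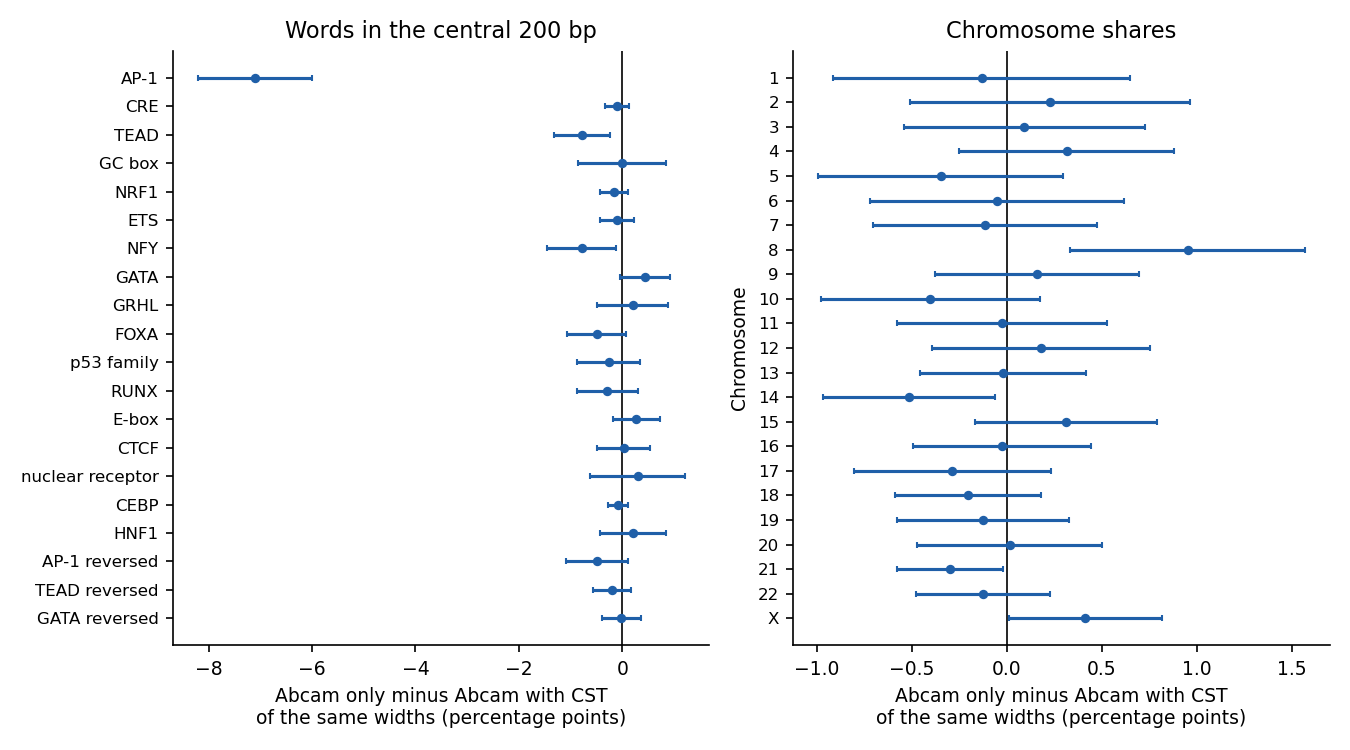
Difference between Abcam-only regions and shared Abcam regions of the same widths (horizontal axes, percentage points), with 95% intervals as bars, for the share with each of 20 words in the central 200 bp (left) and the share on each chromosome (right). AP-1 stands at -7.11 points, and no chromosome was called.

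Chromosomes took these regions in nearly the same shares as the shared regions of equal width. Of 23 chromosomes, 0 were called by the z test with Benjamini-Hochberg adjustment and 4 had an unadjusted p under 0.05, which were 8 and X with more and 14 and 21 with fewer. Chromosome 8 held 6.10% of Abcam-only regions, against 5.14% (adjusted p = 0.0577 by the z test, n = 8892). The share of Abcam regions that lacked CST ran from 19.9% on chromosome 21 to 30.4% on X.

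Abcam-only regions were also set against CST-only regions. The 2 widest classes held too few CST-only regions to compare, which left 8856 Abcam-only and 4108 CST-only regions. Against CST-only regions of the same widths, 4 of 24 measures were called by the z test. Abcam-only regions lay over 10 kb from a start site more often (63.8% against 56.9%, n = 8856 and 4108, adjusted p = 3.48e-12), had a lower GC content (48.8% against 50.5%, adjusted p = 8.23e-11), held the AP-1 word more often (18.7% against 14.2%, adjusted p = 2.97e-10) and held the GC box word less often (12.3% against 14.5%, adjusted p = 0.00943). The shares at promoters (19.96% against 21.01%) and in H3K4me3 (15.8% against 16.0%) did not pass the test, with intervals of -2.57 to 0.466 and -1.60 to 1.17 points.

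At promoters the midpoints lay close to the start site, which the definition of a promoter region partly fixes. The midpoint was a median of 28 bp downstream of the nearest start site (interquartile range -132 to 233 bp), and 1532 of the 1790 (85.6%) covered a start site, against 87.8% of shared promoter regions of the same widths. The midpoint was upstream of the start site in 43.5%, against 50.7%, a difference that was not tested. H3K4me3 was present at 1279 (71.5%), against 73.8%. At 511 promoter regions it was not called.

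The Abcam-only regions in H3K4me3 mostly lay in H3K4me3 regions that held no CST region. The 1418 regions fell in 1395 H3K4me3 regions, of which 1245 held none and 150 (10.8%) held a CST region elsewhere in their length. Over all H3K4me3 regions 67.1% held a CST region, but the rule itself fixes part of that difference. The 150 had a median width of 4844.5 bp, and the 1245 of 2886 bp. In 1219 cases the Abcam-only region lay wholly inside the H3K4me3 region, and 139 lay off protein-coding promoters.

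An Abcam-only region was at a promoter of 1947 of 19618 protein-coding genes (9.92%), and 1595 of them (8.13% of all genes) had no CST region at any promoter. Of these 1595 genes, 1278 (80.1%) had H3K4me3, against 53.1% of all genes. The 1595 were chosen for having an Abcam region at a promoter, which 46.7% of all genes had, so all genes are not a like group. Among promoter regions, 71.5% of Abcam-only ones overlapped H3K4me3, against 73.8% of shared ones of the same widths. Another 352 genes with an Abcam-only promoter region also had a CST region at a promoter and are not among the 1595. Their CST region can lie at the same or at another start site.

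The widest such promoter region was 4289 bp long, on chromosome 9 at 133374737 to 133379025, between the divergent genes STKLD1 and SURF4, a cargo receptor of the endoplasmic reticulum. The nearest CST region was 26056 bp away. Next were JADE2, a PHD finger protein of the HBO1 acetyltransferase complex (3693 bp), NMNAT2, an enzyme of NAD synthesis (3220 bp), GLCCI1, a glucocorticoid-induced gene (3124 bp), and PLPP6, a lipid phosphatase (3103 bp). OVOL1, a zinc finger factor of epithelial differentiation, had one of 2943 bp with its edge 142 bp from an internal start site. Also among the 15 widest were the promoters of the histone H3 gene H3C4, of the general transcription factor genes GTF2B (TFIIB) and GTF3C2 (TFIIIC), of the ubiquitin ligase RNF213, and of UCKL1, RIPOR1, C17orf58, PDIK1L and NPEPPS. All of the 15 but NMNAT2 overlapped H3K4me3, and each was wider than at least 89.99% of all Abcam regions. CST regions were 950 bp away at RIPOR1 and 87258 bp away at GTF2B, the ends of the range.

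In the gene lists, which were chosen with earlier results known, genes with an Abcam-only promoter region ran from 0 of 20 hepatocyte and 0 of 20 neuronal genes to 5 of 16 chromatin regulators mutated in bladder cancer (31.3%, 95% interval 11.02% to 58.7%), beside 9.92% of all genes. Such a share also reflects how many genes of a list have any Abcam region: it was 0 of the hepatocyte genes and 11 of the 16 chromatin regulators. The intervals of small lists are wide, and no list was tested. The larger lists had 13 of 83 cytosolic ribosomal protein genes (15.7%, 8.61% to 25.3%), 60 of 476 ZNF genes (12.6%, 9.76% to 15.9%) and 5 of 39 HOX genes (12.8%, 4.30% to 27.4%). Any Abcam region was at a promoter of 46 of these ribosomal protein genes, 215 of the ZNF genes and 10 of the HOX genes. Over all genes with any Abcam promoter region, 21.3% had an Abcam-only one.

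The counts that follow are of genes without any CST region at a promoter, which were 8.13% of all genes, and most rest on 1 to 5 genes. They held 4 of the chromatin regulators: the cohesin subunit STAG2, the H3K4 methyltransferase KMT2C, the remodeler CHD6 and the bromodomain protein BRWD1. All 4 had H3K4me3, as did all 16 of that list. At BRWD1 a CST region 8467 bp away covers the annotated 5′ end of the gene, whose transcript is not listed as protein-coding and was not counted. Among SWI/SNF subunits they were the core subunit SMARCC2, the PBAF subunit PBRM1 and the neuron-associated DPF1 (3 of 28). PBRM1 and DPF1 had narrow regions of 600 and 592 bp, which were wider than only 1.43% and 1.31% of Abcam regions. Among PRC2 genes they were the core subunit SUZ12 and the accessory subunit MTF2 (2 of 12), 34.1 and 35.5 kb from CST.

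Signalling genes of this kind were both tuberous sclerosis genes TSC1 and TSC2, inhibitors of mTORC1 (2 of 31 PI3K, AKT and mTOR genes), and HRAS, BRAF, the MAPK phosphatase DUSP4 and the p38 kinase kinase MAP2K6 (4 of 34 RAS and MAPK genes). The HRAS region was 2252 bp wide and the DUSP4 region 2214 bp, and MAP2K6 was the one of the 4 without H3K4me3. Among apoptosis genes they were the BH3-only genes BID and BIK and the survival gene MCL1 (3 of 24), each in H3K4me3, which 23 of the 24 had.

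Among luminal urothelial genes they were OVOL1 and the arachidonic acid epoxygenase CYP2J2 (2 of 26), and among basal genes the keratin KRT6A (1 of 20), without H3K4me3. The AP-1 family member BATF3 was the only one of 24 AP-1 and TEAD genes, although 7 of them had an Abcam-only promoter region. The mesenchymal genes were ZEB1, FN1 and LUM (3 of 20), with a CST region 597 bp from the FN1 region. Immune genes were CD8A, CSF1R and CD14 (3 of 20), at widths of 1058, 1031 and 941 bp. None of the 3 had H3K4me3, which 0 of the 20 had. No gene of the cell cycle (0 of 25) or of cell adhesion and junctions (0 of 25) was of this kind. The glucocorticoid receptor gene NR3C1 was the only one of 30 nuclear receptors.

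Of the ribosomal protein genes, 12 of 83 were of this kind, with wide regions at RPL24 (1859 bp), RPL35A (1824 bp) and RPL9 (1662 bp). All 12 had H3K4me3, as did 81 of the 83. Of the ZNF genes, 54 of 476 were, led by ZNF598 (2266 bp), ZNF552, ZNF343 and ZNF513. All 54 had H3K4me3, as did 345 of the 476. Of the HOX genes 5 of 39 were, led by HOXB6 (1765 bp), inside an H3K4me3 region of 21817 bp, and followed by HOXB1, HOXA4 and HOXD11. HOXB1 had no H3K4me3.

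Away from promoters, 5604 regions (63.0%) lay over 10 kb from a start site and without H3K4me3. The widest was 3457 bp, on chromosome 6 at 136565226 to 136568682, in an intron of the stress kinase kinase MAP3K5, with the nearest CST region 14.2 kb away and a central GC content of 34.0%. Others of the 10 widest were in introns of SSPN, ELF4, RBBP8 and BRMS1L, and in intergenic space nearest to NXT1, ZSWIM4, TBX3 and HSD17B13. The one nearest to TBX3, a T-box factor, lay 611.756 kb from its start site and 227 bp from a CST region, while the one in RBBP8, a DNA end resection factor, lay 84.3 kb from CST.

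The region farthest from CST was on chromosome 4 at 61462043 to 61463329, in an intron of the adhesion receptor gene ADGRL3, 2.65 Mb from CST, and another lay 104.72 kb from the same gene's start. Others were nearest to REG3G on chromosome 2 (2.44 Mb) and to TRAM1L1 on chromosome 4 (1.85 Mb). These 4 were narrower than the median Abcam region, at 695 to 1317 bp.

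Some long genes held several. RUNX1, a transcription factor gene 1217 kb long in the annotation, held 13 Abcam-only and 29 shared regions, DST held 10 and 25, and NAV2 held 9 and 27. In KANK1 (9 Abcam only and 7 shared) and DNM3 (8 and 5), Abcam-only regions were the larger share, at 56.3% and 61.5% of the gene's Abcam regions. NEBL held 9 and 10, PDZD2 8 and 8, SPIDR 8 and 11, LPP 8 and 20, and CPQ 7 and 14. These genes were listed for their count, which grows with length and with the share without CST, so high shares are partly selected. Over all Abcam regions that share was 23.7%. It was 31.0% in RUNX1, 28.6% in DST and in LPP, and lower than these in NAV2. The shares in KANK1 and DNM3 rest on few regions, and no gene was tested.

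The genome was also divided into windows of 1 Mb. Of 2531 windows with any Abcam region, 2238 held an Abcam-only region, with a median of 3, and 104 held Abcam-only regions and no shared one. The most were 21, beside 51 shared regions, on chromosome 20 in the window from 50 to 51 Mb that holds CEBPB and PTPN1, none of them at a promoter. Next, with 16 each, were the window of the forkhead genes FOXQ1, FOXF2 and FOXC1 on chromosome 6 (beside 23 shared), that of TLE3 on chromosome 15 (beside 33) and that of ASXL1 and DNMT3B on chromosome 20 (beside 26). A window of chromosome 8 with PABPC1 and YWHAZ held 15, beside 54 shared. These windows were listed for their count, which grows with the number of Abcam regions of either kind. Their share without CST ran from 21.7% in that window to 41.0% in the window of the forkhead genes, and was 29.2% in the window of CEBPB. Over all Abcam regions it was 23.7%, and the windows were not tested.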

How the data were processed

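CUT&RUN was done on RT112 cells, with replicates numbered 1 to 3 per antibody; whether these came from separate cultures is not stated. Per the study's methods, the authors trimmed reads (cutadapt), aligned them to the human and E. coli genomes (bwa-mem2), removed duplicates (Picard) and reads without a unique position, scaled replicates by spike-in, called regions with SEACR, kept only the top of the called peaks and merged those of the replicates (bedtools); the submitters' processing notes name hg38 and give no versions. The SEACR mode differs between the methods (relaxed) and the list names (stringent), so the threshold is uncertain. The deposited lists hold positions only, with no signal, score or count, and positions are printed counting from 1. Removal of reads without a unique position can leave repeats without regions.

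Overlap was at least 1 bp. Genes were 19618 protein-coding genes of GENCODE 44. Distance to a start site was measured from the nearest edge of the region, and was 0 where the region covered it. Promoters (within 1 kb) were taken first, and the other regions were placed in exons, introns or intergenic space by their midpoints. Shared regions were weighted to the Abcam-only widths over 20 width classes, and the difference was given with a 95% interval and a two-sided z test, Benjamini-Hochberg adjusted within each family at 0.05 (7 measures of location, 2 of sequence, 20 words, 23 chromosomes, 24 against CST only). Other shares carry exact binomial intervals. Both treat neighbouring regions as independent and cover counting error only, not replicate spread. Words were searched on both strands of the central 200 bp: TGANTCA for AP-1, TGACGTC for CRE, GGAATGT for TEAD, GGGCGG for the GC box, GCGCATG for NRF1, CGGAAGT for ETS, GCCAAT for NFY, AGATAAG for the family of GATA factors, ACCNGTT for GRHL, TGTTTAC for FOXA, ACATGT for the p53 family, TGTGGTT for RUNX, CACGTG for the E-box, AGGGGGC for CTCF, AGGTCA for nuclear receptors, TTGCGCA for CEBP and GTTAAT for HNF1, with ACTNAGT (AP-1 reversed), TGTAAGG (TEAD reversed) and GAATAGA (the reversed GATA word) as controls. A match is a description, not a bound site.

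Named were the 15 widest Abcam-only promoter regions of genes without CST at a promoter, the 10 widest distal regions, up to 4 genes of each of 19 lists with the widest such promoter region, the 10 genes and 5 windows of 1 Mb with the most regions, the 3 regions on either side of the rule and the 5 farthest from CST. These regions, lists and words were chosen with earlier results of these data known. Scripts were tested on simulated data. Python 3.11.15, numpy 2.4.6, scipy 1.17.1, pandas 2.3.3, pysam 0.24.0, matplotlib 3.10.9 and samtools 1.23.1 were used. Regions outside chromosomes 1 to 22 and X (152 Abcam, 159 CST and 14 H3K4me3) were left out of all comparisons. A few of the named items are not reported here.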

Additional observations from a re-analysis of the deposited data

Results flagged for a closer look

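Regions were also listed outside the chromosomes compared above. On contigs other than chromosomes 1 to 22 and X, 126 Abcam regions were listed, of which 37 overlapped no CST region, which is 29.4% (95% exact interval 21.6% to 38.1%), an interval that contains the 23.7% on the chromosomes used. Their median width was 1190.5 bp, beside 1124 bp. The difference was not tested.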

How the results depend on the processing

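Of 145 alternatives of differences with a test, 103 kept the direction and the side of the threshold, and 42 did not. Of 50 alternatives of counts, 41 were within 1.5 times the count reported, which does not say that the same regions or words were counted. Under the alternatives that changed the rule, the number of Abcam-only regions was 6040 to 10543; the lowest keeps only wide regions in both ARID1A lists. The AP-1 difference kept its direction under all 15 alternatives (-10.8 to -0.529 points) but lost its call without matching on width (-0.890) and at promoters with H3K4me3 (-0.529), and the differences from CST-only regions kept theirs under every one run. Without matching on width, differences reversed or changed side at promoters (-5.14), in H3K4me3 (-6.42), over 10 kb (4.91), in exons (0.333), in introns (2.21), in intergenic space (2.60) and over 100 kb (2.62), in GC (-0.291) and in CpG (-0.0292), the TEAD call was lost (-0.161), GC box and NFY were the 2 words called, 3 chromosomes (4, 14 and X) were called, and the GC box difference from CST-only regions was -1.15 (adjusted p = 0.156 by the z test, n = 8892). The promoter difference lost its call at 3 kb (1.36), with the most upstream start sites (1.24) and with those of all gene types (1.01). In the wider regions (1695 Abcam-only regions at or above the Abcam median), the promoter (7.80) and GC (2.43) differences were larger. There, H3K4me3 (6.73), over 10 kb (-6.78), introns (-3.99), intergenic space (-4.42) and CpG (0.0371) were called. Exons (0.601) and over 100 kb (-1.61) reversed. The 4 words called lower there were AP-1 (-8.01), NFY (-1.77), FOXA (-1.84) and the control AP-1 reversed (-1.67), and TEAD (-0.336) was not called. At least 5 kb from CST, the promoter (4.63) and GC (1.60) differences were larger, and H3K4me3 (2.88), introns (-2.17), intergenic space (-2.33) and CpG (0.0260) were called, as were 1 word higher (GC box) and 1 chromosome. When regions that CST covered by less than 50 percent also counted, H3K4me3 was called (1.27), and with Mantel-Haenszel weights H3K4me3 (1.43) and over 10 kb (-1.60) were. The share over 100 kb, near 0 (0.0260), reversed at 500 bp from CST (-0.0913), with that cover (-0.0320), with joined regions (-0.0182), with 50 classes (-0.0262) and with Mantel-Haenszel weights (-0.271). Off promoters and without H3K4me3, CpG was -0.00594 and 1 word was called lower. Words called lower were 4 in the central 400 bp, 1 with 10 classes and 1 on autosomes, where 1 chromosome (8) was called. The TEAD call was also lost off promoters without H3K4me3 (-0.903) and at promoters (-0.415), and its difference reversed at promoters with H3K4me3 (0.0865); words at promoters and in the whole region were added after seeing the data. The causes were not tested. No paired analysis was possible because each antibody has 1 merged list without columns per replicate, and no replicate could be left out. Depth is unknown. Bases masked as repeats were not run, since the reference used has no masking.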
